A study of Mus musculus with 7 samples.

Results

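The nuclear genes of respiratory complexes II to V were examined by RNA sequencing of mouse heart under pressure overload, with and without empagliflozin (EMPA), a drug that blocks the renal glucose transporter SGLT2. The genes were chosen by a rule on names, set with earlier results of these data known. It took every row of the deposited gene table whose symbol starts with Uqc, Cox4 to Cox8 or Atp5, together with Sdha, Sdhb, Sdhc, Sdhd and Cyc1, without the pseudogene names ending in -ps. The rule found 50 of 53460 genes: 4 of complex II, 12 of complex III, 18 of complex IV and 16 of complex V. All mice were C57BL/6 (C57BL/6Ncr in the labels' protocol and C57BL/6NCrSlc in the study's methods), had transverse aortic constriction (TAC), which narrows the aorta and loads the left ventricle, at 12 weeks of age and were sampled at 14 weeks. Mice of the TAC + EMPA group (n = 4) ate chow containing EMPA for 5 days from 2 weeks after TAC, and mice of the TAC group (n = 3) did not. The study's methods describe male mice and place TAC at a younger age than the labels do, and they speak of fewer libraries, so groups and replicates were taken from the labels. Sham-operated hearts were not analysed here, so the values compare treated with untreated hearts under load and give no level for an unloaded heart.

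Complex II, succinate dehydrogenase, passes electrons from succinate to ubiquinone and is also an enzyme of the citric acid cycle. Complex III passes them on to cytochrome c while pumping protons, complex IV (cytochrome c oxidase) hands them to oxygen, and complex V (ATP synthase) uses the returning protons to make ATP. The heart beats on ATP made almost wholly this way, and in muscle several subunits of complex IV exist as a heart and skeletal muscle isoform beside a ubiquitous one.

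Libraries were of polyadenylated RNA, and the values are FPKM (fragments scaled to transcript length and to library size), 1 per gene and library, so levels can be compared between genes per length. Total fragment numbers are unknown, and steps in the low values put the deepest library at 2.27 times the shallowest. The first principal component of all genes held 46.8% of the variance and set TAC replicates 1 and 2 (-45.7 and -56.0) apart from TAC replicate 3 (16.1), which lay beside the 4 TAC + EMPA libraries (18.9 to 24.3). The 8 cardiomyocyte markers summed to 70525, 65097 and 57506 FPKM in TAC replicates 1, 2 and 3. In the TAC + EMPA libraries the sum was 54313 to 62158, and 3 of the 8 had a negative log2 fold change. Myl2, the ventricular myosin light chain, was between 30558 and 37885 FPKM. Myh6, listed at 0 in some library, and Actc1 had the status HIDATA or FAIL, explained below. The 7 fibroblast markers, 6 of them negative, summed to 557, 592 and 581 against 469 to 581. The 5 erythroid markers, 4 of them negative, summed to 422, 213 and 305 against 148 to 471. The summed level of 8 endothelial markers, all 8 with a negative log2 fold change, was 666, 802 and 377 FPKM in TAC replicates 1, 2 and 3 and 346 to 377 in the TAC + EMPA libraries, and that of 5 macrophage markers, 3 of them negative, 158, 163 and 111 against 103 to 121. The 6 brown adipocyte markers summed to 1813, 2199 and 1023 against 771 to 978, nearly all of it Fabp4, and Ucp1 was listed at 0 throughout. Cidea, another of the 6, was at 29.7, 28.1 and 26.7 FPKM against 23.6 to 32.4. The part of other cells in the results below was not tested. None of the 50 genes had the status HIDATA or FAIL, with which Cuffdiff marks a row too rich in data or failed.

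No motif or other sequence feature entered the choice of genes, so their promoters were read as a separate description. RefSeq (GRCm38.p6) gave a window of 300 bases around the start for 38 of the 50 genes. The core of the nuclear respiratory factor NRF1 (GCATGCGC, on both strands, where overlapping hits on opposite strands count separately) was present in 7 of the 38 (18.4%), against 3.05% of 27025 genes. The ETS core bound by GABP (CCGGAAG, both strands) was present in 12 (31.6%, against 9.93% of genes), the core of YY1 (AAGATGGC) in 4 (10.5%, against 3.19%) and the element of the estrogen-related receptors (TNAAGGTCA) in 2, Atp5g3 and Sdhd (5.26%, against 1.43%). These are counts of letters in a window, and a match is no evidence of binding. Shown here are the windows of Uqcr11 and Uqcc1, which had the lowest and the highest log2 fold change of complex III, and of Cox8a and Cox8b, the ubiquitous and the muscle isoform of one subunit, each 5′ to 3′ with the NRF1 and ETS cores in capitals, the latter as CTTCCGG where it lies on the other strand. Uqcr11 (chr10:80406772-80407071, minus strand) held 1 of each core, Cox8a (chr19:7217567-7217866, minus strand) 2 ETS cores, and the windows of Uqcc1 (chr2:155930261-155930560, minus strand) and Cox8b (chr7:140900397-140900696, minus strand) neither.
Uqcr11: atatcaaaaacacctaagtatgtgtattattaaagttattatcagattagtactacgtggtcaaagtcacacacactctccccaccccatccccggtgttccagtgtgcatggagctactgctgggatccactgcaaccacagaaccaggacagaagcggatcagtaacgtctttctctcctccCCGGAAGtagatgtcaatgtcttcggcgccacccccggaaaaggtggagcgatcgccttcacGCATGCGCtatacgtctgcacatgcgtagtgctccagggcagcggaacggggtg
Uqcc1: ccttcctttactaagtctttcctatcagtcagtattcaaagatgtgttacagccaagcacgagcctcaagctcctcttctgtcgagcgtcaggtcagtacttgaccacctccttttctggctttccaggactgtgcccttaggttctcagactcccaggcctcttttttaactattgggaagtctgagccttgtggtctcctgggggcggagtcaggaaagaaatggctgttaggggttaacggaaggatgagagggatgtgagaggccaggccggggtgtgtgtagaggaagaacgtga
Cox8a: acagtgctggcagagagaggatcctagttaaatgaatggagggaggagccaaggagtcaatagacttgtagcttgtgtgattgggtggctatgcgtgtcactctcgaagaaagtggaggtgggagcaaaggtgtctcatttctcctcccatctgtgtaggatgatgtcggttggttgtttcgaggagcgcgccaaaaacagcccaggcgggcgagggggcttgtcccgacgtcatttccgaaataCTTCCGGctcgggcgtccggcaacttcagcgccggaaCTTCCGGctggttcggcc
Cox8b: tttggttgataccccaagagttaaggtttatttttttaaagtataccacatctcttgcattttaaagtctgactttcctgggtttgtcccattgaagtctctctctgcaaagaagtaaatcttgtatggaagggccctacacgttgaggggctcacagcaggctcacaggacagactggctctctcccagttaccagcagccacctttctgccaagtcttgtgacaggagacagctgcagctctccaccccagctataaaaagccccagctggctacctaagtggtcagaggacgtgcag

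Most of the 50 genes had lower FPKM with EMPA than without it. The lower ones included 29 of the 30 with transcripts under 1000 bases and every kept gene of complex IV. Of all kept genes under 1000 bases, 1159 of 1609 were also lower. The filter of a mean FPKM of at least 1 over the 7 libraries was passed by 48 genes, and the remaining 2, Cox7b2 and Cox8c, isoforms known from testis, reached no more than 0.193 FPKM in any library. The log2 fold change was taken as log2(FPKM + 1) in TAC + EMPA minus TAC. It was negative for 38 of the 48 and positive for 10, with a median of -0.41. Over all 12391 genes kept, 5802 were negative and 6589 positive, with a median of 0.03. Among the 768 kept genes with a mean FPKM of 100 or more, 446 were negative and 322 positive, with a median of -0.12. By complex the median was 0.36 in complex II (1 of 4 negative), -0.30 in complex III (10 of 12), -0.45 in complex IV (16 of 16) and -0.41 in complex V (11 of 16). The summed FPKM of complex IV was 30651, 29971 and 20030 in TAC replicates 1, 2 and 3 and 18552, 19683, 19574 and 20339 in TAC + EMPA replicates 1 to 4. The summed FPKM of complex II ran the other way, at 2130, 1865 and 2723 against 2413, 2533, 2650 and 2957. In both sums TAC replicates 1 and 2 stood apart, and TAC replicate 3 lay within the range of the TAC + EMPA libraries.

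**Figure D1:**
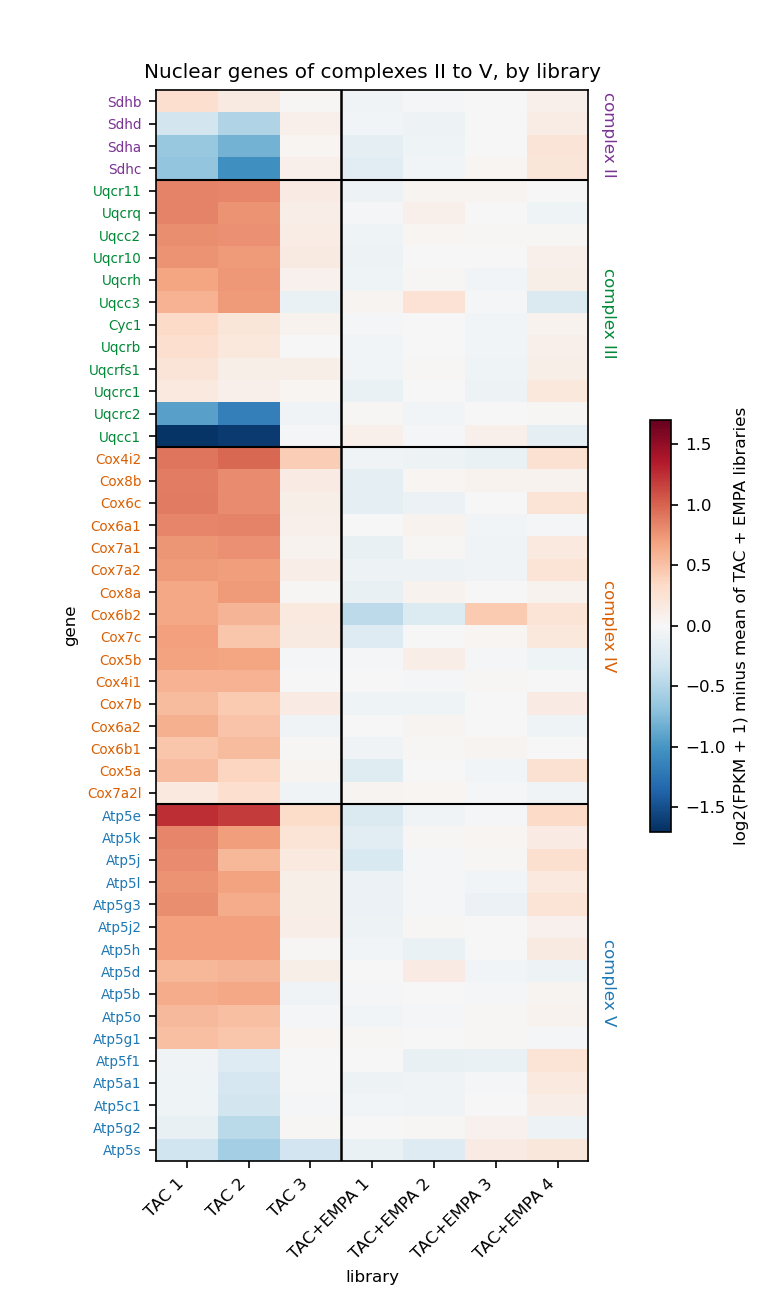
Each row is a gene and each column a library, and the color gives log2(FPKM + 1) minus the mean of the 4 TAC + EMPA libraries, for the 48 genes kept and ordered within each complex by log2 fold change. The columns of TAC replicates 1 and 2 are red for most genes and blue for Sdha, Sdhc, Uqcrc2 and Uqcc1, while TAC replicate 3 is pale like the TAC + EMPA libraries.

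In limma's test over all genes, adjusted by the Benjamini-Hochberg method, 0 of the 48 genes were lower and 0 were higher at an adjusted p under 0.05, as for the whole table (0% and 0% of 12391 genes). The adjusted p of the 48 lay between 0.115 and 0.580. At an unadjusted p under 0.05, 26 of the 48 (54.2%) were lower, against 14.7% of all genes, and 3 (6.25%), Uqcrc2, Uqcc1 and Atp5s, were higher, against 19% of all genes. A fit with library weights, estimated from the same values and not fully converged, gave TAC replicate 3 a weight of 0.121. The other libraries had 0.801 to 3.52, so this fit comes near to leaving TAC replicate 3 out. It called 34 lower (against 20.6% of all genes) and 6 higher (against 26.7%) at an adjusted p under 0.05. In the unweighted fit, the counts at an unadjusted p under 0.05 depended on single libraries: leaving out TAC replicate 1 or 2 left 4 or 5 lower and 1 or 0 higher genes, and leaving out TAC + EMPA replicate 1, 2, 3 or 4 left 11, 13, 14 or 21 lower genes. The FPKM ranges of the 2 groups did not overlap for 11 lower genes (22.9%, against 10.7% of all genes) and 2 higher ones (4.17%, against 11.5%). The 11 were Uqcc2, Uqcr10, Uqcr11, Uqcrq, Cox4i2, Cox6a1, Cox7b, Cox8b, Atp5g1, Atp5j2 and Atp5k, and the 2 were Uqcrc2 and Atp5s.

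TAC replicate 3 decided these calls. For 46 genes of 48, its log2 value was closer to the average of the TAC + EMPA libraries than to that of TAC replicates 1 and 2. The same held for 76.9% of all genes kept, and for 88.3% of the 768 with a mean FPKM of 100 or more. Among the 48, Uqcrfs1 and Atp5s were the exceptions. TAC replicate 3 lay within the range of the TAC + EMPA libraries for 33 of the 48. The median difference of the TAC + EMPA mean from a single TAC library was -0.60 for replicate 1, -0.57 for replicate 2 and -0.06 for replicate 3. With TAC replicate 3 left out, 35 of the 48 genes were lower at an adjusted p under 0.05 in limma (72.9%, against 23.6% of all genes) and 7 were higher (14.6%, against 29.8%), with a median log2 fold change of -0.59. All 4 TAC + EMPA libraries then lay below both TAC libraries for 36 genes (75.0%, against 30.4% of all genes) and above both for 8 (16.7%, against 36.5%). The remaining 4 were Uqcrc1, Uqcrfs1, Atp5a1 and Atp5f1. The labels give no reason to leave this library out, so the values of all 7 libraries stand first throughout. The library stood out by its values, and leaving it out narrows the spread within the TAC group. The adjusted p-values without TAC replicate 3, here and below, describe that choice and are no test of EMPA. Leaving out TAC replicate 1 or 2 instead gave 0 lower and 0 higher of the 48 genes at that threshold in limma. Nothing in these data checks a library's label independently, so whether the label of TAC replicate 3 is right was not tested, and every fold change over 7 libraries rests on it. In bulk tissue fewer cells of a type and less RNA per cell cannot be told apart.

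**Figure D2:**
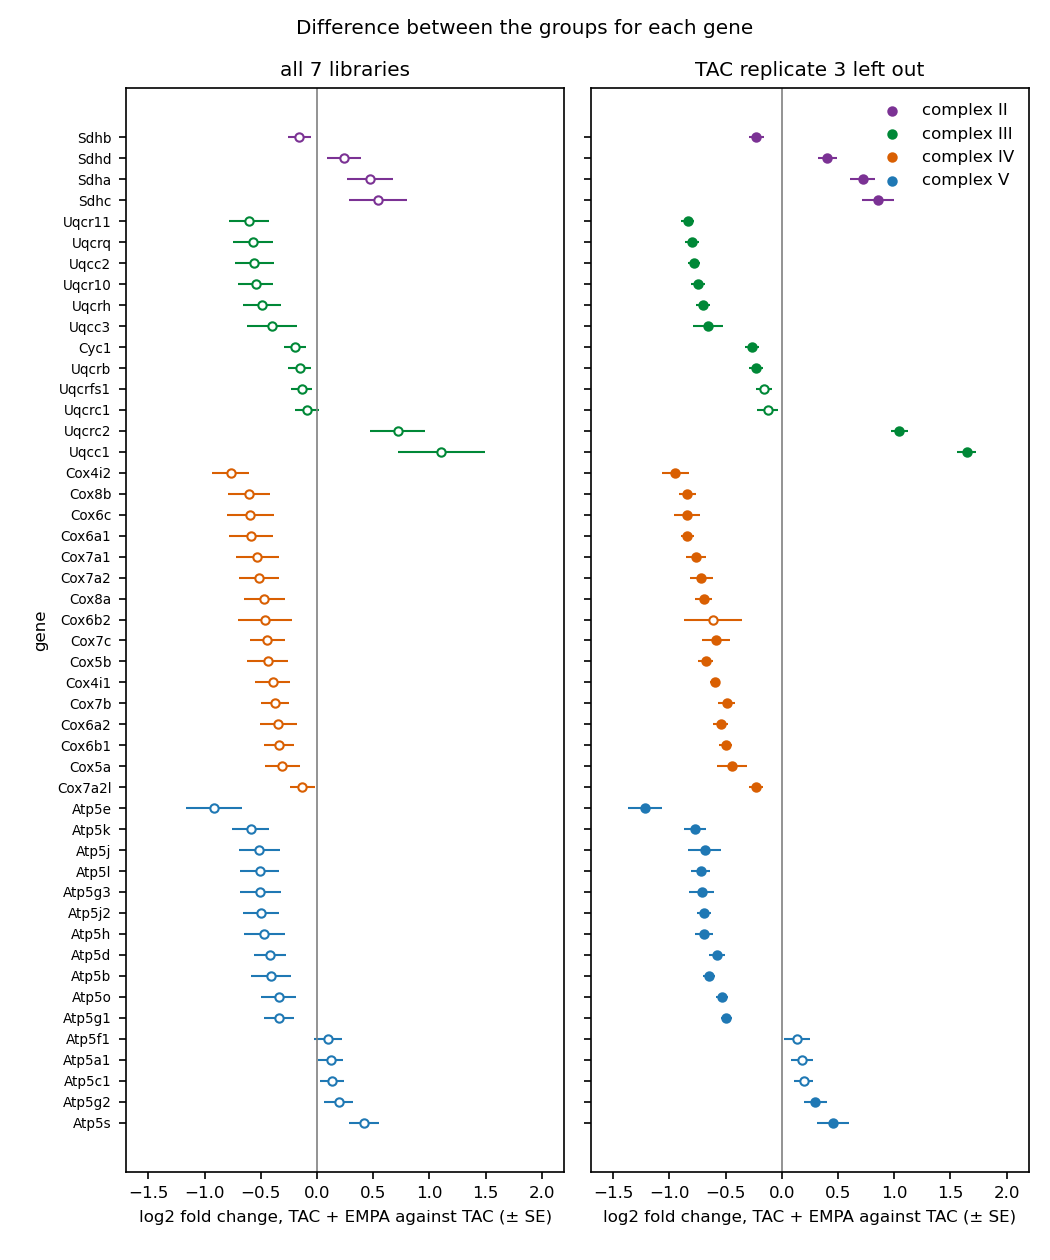
Points are the log2 fold changes of TAC + EMPA against TAC for the 48 genes, bars are the standard errors from limma, and filled points have an adjusted p under 0.05. With all 7 libraries no point is filled, and with TAC replicate 3 left out those of 35 lower and 7 higher genes are.

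In complex II, 3 of the 4 subunits were higher on average in the TAC + EMPA group, and the iron-sulfur subunit Sdhb was lower (with a sign that turned under quantile normalization, 0.016), none past the test with all libraries. Sdha, the flavoprotein that oxidizes succinate (GRCm38, as for all positions, chromosome 13 from 74322254 to 74350280), was at 609, 545 and 969 FPKM in the TAC libraries and 852, 906, 957 and 1105 in the TAC + EMPA libraries. Sdhc, a membrane anchor that holds heme and the quinone site (chromosome 1 from 171127165 to 171150603), was at 398, 307 and 673 against 553, 611, 650 and 732. In both genes TAC replicates 1 and 2 were the lowest of the 7 libraries, while TAC replicate 3 was among the highest, so the groups overlapped. The log2 fold change was 0.47 for Sdha (SE 0.21, adjusted p = 0.155 from limma) and 0.54 for Sdhc (SE 0.26, adjusted p = 0.176), and without TAC replicate 3 it was 0.72 and 0.86 (adjusted p = 0.0026 and 0.0035). Sdhd, the other membrane anchor, followed the same order at 302, 263 and 399 against 353 to 410, with a log2 fold change of 0.24. Sdhb (chromosome 4 from 140961203 to 140979193) was at 822, 749 and 683 against 646, 663, 668 and 710, with a log2 fold change of -0.16 (SE 0.10, adjusted p = 0.282). Sdhb thus had its highest values in the same 2 libraries in which its partner Sdha had its lowest. The FPKM ratio of Sdha to Sdhb, a pair chosen after the values were seen, was 0.741, 0.728 and 1.42 in the TAC libraries and 1.32 to 1.56 in the TAC + EMPA libraries.

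Complex III held differences in both directions, 10 of 12 genes being lower on average and Uqcrc2 and Uqcc1 higher. Uqcr10 and Uqcr11, small accessory subunits, had the smallest p-values among its lower genes. Uqcr11 (chromosome 10 from 80402997 to 80406830) was at 2393, 2368 and 1468 FPKM in the TAC libraries and 1255, 1380, 1372 and 1323 in the TAC + EMPA libraries, and Uqcr10 (chromosome 11 from 4701973 to 4704342) at 1489, 1444 and 978 against 823, 881, 877 and 927. All TAC libraries were above all TAC + EMPA libraries for both, though TAC replicate 3 was close to them. Their log2 fold changes were -0.61 (SE 0.18) and -0.55 (SE 0.16), both at adjusted p = 0.115 (limma), and -0.84 and -0.74 without TAC replicate 3 (adjusted p = 0.00025 and 0.00036). The hinge protein Uqcrh and the small subunit Uqcrq had log2 fold changes of -0.49 and -0.57. Cyc1 (cytochrome c1), Uqcrfs1 (the Rieske iron-sulfur protein), Uqcrb and Uqcrc1, which include the catalytic electron carriers, were between -0.20 and -0.09, and quantile normalization turned the sign of Uqcrc1 and Uqcrfs1, as length correction did for Uqcrb (0.07).

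Among the core proteins the 2 partners differed. Uqcrc1 (chromosome 9 from 108936633 to 108949623) was at 1122, 1053 and 1015 FPKM in the TAC libraries and 919, 1005, 942 and 1132 in the TAC + EMPA libraries, with a log2 fold change of -0.09 (SE 0.11, adjusted p = 0.541 from limma). The groups overlapped fully. Uqcrc2 (chromosome 7 from 120635176 to 120659524) was at 467, 395 and 849 against 902, 863, 886 and 899, with a log2 fold change of 0.72 (SE 0.24, adjusted p = 0.117), and 1.05 without TAC replicate 3 (adjusted p = 0.00026). The groups did not overlap, but TAC replicate 3 missed the lowest TAC + EMPA library by a small margin. The ratio of Uqcrc2 to Uqcrc1, chosen after the values were seen, was 0.416, 0.375 and 0.836 against 0.794 to 0.982. Uqcrc2 overlaps Pdzd9 on the opposite strand in the annotation, and whether the counting used strand is not stated.

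Uqcc1, an assembly factor needed to make cytochrome b, had the highest log2 fold change of the 48 genes. It was at 135, 140 and 425 FPKM in the TAC libraries and 461, 424, 460 and 389 in the TAC + EMPA libraries (chromosome 2 from 155846894 to 155930310). TAC replicates 1 and 2 were far below the other 5 libraries, among which TAC replicate 3 stood in the middle. The log2 fold change was 1.11 (SE 0.38, adjusted p = 0.118 from limma), and 1.65 without TAC replicate 3 (adjusted p = 0.00017). Uqcc2, which acts with Uqcc1 in the same assembly step, ran the other way, at 294, 293 and 185 against 162, 174, 172 and 173 (log2 fold change -0.56, SE 0.17, adjusted p = 0.116). The FPKM ratio of Uqcc1 to Uqcc2, a pair chosen after the values were seen, was 0.460, 0.477 and 2.29 in the TAC libraries and 2.25 to 2.85 in the TAC + EMPA libraries. The third factor, Uqcc3, had a log2 fold change of -0.40 (SE 0.22).

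**Figure D3:**
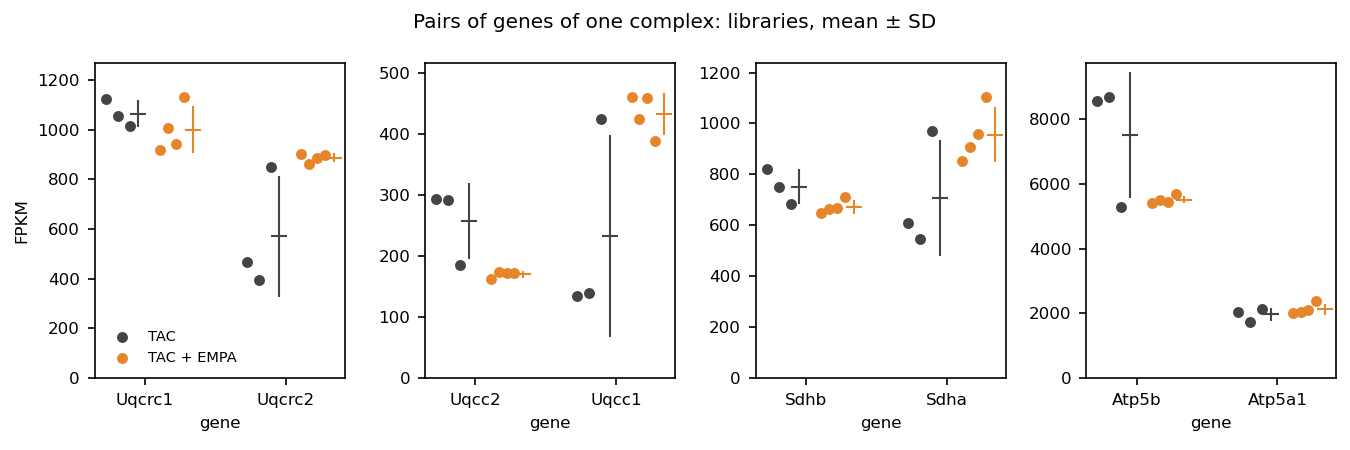
FPKM of pairs of genes of one complex, with 1 point per library and the mean ± SD beside each group (TAC n = 3, TAC + EMPA n = 4). For Uqcrc2, Uqcc1 and Sdha 2 TAC libraries lie low and the third lies with the TAC + EMPA libraries, whereas for Uqcc2 and Atp5b the same 2 lie high, as shown by 8582 and 8703 FPKM for Atp5b against 5284 in TAC replicate 3.

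All 16 genes of complex IV that were kept had negative log2 fold changes, except Cox6b1 under quantile normalization (0.077) and Cox7a2l after correction for transcript length (0.0069), 12 of them at an unadjusted p under 0.05 (75.0%, against 14.7% of all genes), and 15 were lower at an adjusted p under 0.05 with TAC replicate 3 left out (93.8%, against 23.6%). The log2 fold changes ran from -0.77 to -0.13. Quantile normalization brought Cox4i1 to -0.072 and Cox6a2 to -0.020, while Cox4i2 was at -0.83 and Cox6a1 at -0.56. Under it the median of the complex was -0.24. Cox8b, the muscle isoform of the smallest subunit (chromosome 7 from 140898945 to 140900446), was at 3140, 2999 and 1883 FPKM in the TAC libraries and 1542, 1756, 1791 and 1784 in the TAC + EMPA libraries. Its groups did not overlap, and the log2 fold change was -0.60 (SE 0.19, adjusted p = 0.116 from limma), and -0.84 without TAC replicate 3 (adjusted p = 0.00045). Cox4i2, an isoform of subunit 4 known from lung and from oxygen-sensing cells (chromosome 2 from 152754173 to 152765037), had the lowest value in the complex on the log2 fold scale. It was at 19.4, 20.3 and 13.4 against 9.40, 9.12, 8.96 and 12.0, with no overlap (log2 fold change -0.77, SE 0.17, adjusted p = 0.115, and -0.95 with an adjusted p of 0.0012 without TAC replicate 3). The 5 smooth muscle and pericyte markers, 4 of them with a negative log2 fold change, summed to 300, 259 and 199 FPKM in the TAC libraries and 193, 181, 213 and 282 in the TAC + EMPA libraries. TAC + EMPA replicate 4, the highest of its group for that sum, was also the highest of its group for Cox4i2, and the part of these cells in the result was not tested. Cox5a, Cox5b, Cox6c, Cox7b and Cox7c, subunits with a single form in these hearts, had log2 fold changes from -0.59 to -0.31. Cox7a2l, a factor of supercomplex assembly rather than a subunit, had -0.13 (adjusted p = 0.404). Cox4i1 overlaps Emc8 on the opposite strand and Gm20388 on the same strand, and Cox6c overlaps Vps13b, so fragments may be shared there.

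The isoforms of complex IV were compared within each library, where library size cancels. The trend on transcript length described below does not cancel. Cox6a1 has 571 bases and Cox6a2 680, Cox8a 550 and Cox8b 360. Cox7a2 has 659 and Cox7a1 393, Cox4i2 730 and Cox4i1 755. The part of length in these ratios was not tested. Muscle isoforms dominated, with Cox6a2 at 3374, 3100 and 2130 FPKM in the TAC libraries and 2231, 2300, 2236 and 2108 in the TAC + EMPA libraries, beside the ubiquitous Cox6a1 at 227, 230.5 and 135 against 127, 133, 124 and 126. The FPKM ratio of Cox6a1 to Cox6a2 was 0.0673, 0.0744 and 0.0636 in the TAC libraries and 0.0571, 0.0578, 0.0554 and 0.0598 in the TAC + EMPA libraries. The ubiquitous form thus took a smaller part in all 4 TAC + EMPA libraries than in any TAC library, TAC replicate 3 included. Cox8a ran the other way. It was at 409, 430 and 263 FPKM against 237, 269, 261 and 270, and its ratio to Cox8b was 0.130, 0.144 and 0.140 against 0.154, 0.153, 0.146 and 0.151, again without overlap. Cox7a1, the muscle isoform, was at 3218, 3280 and 1992 FPKM against 1758, 1937, 1827 and 2143, and Cox7a2 at 1279, 1264 and 837 against 730, 727, 744 and 904. Their ratio, Cox7a2 to Cox7a1, was 0.385 to 0.420 in the TAC libraries and 0.375 to 0.422 in the TAC + EMPA libraries, which overlapped fully.

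Subunit 4 was almost wholly Cox4i1, at 4184, 4192 and 2767 FPKM in the TAC libraries and 2778, 2745, 2799 and 2763 in the TAC + EMPA libraries. For each 1000 FPKM of Cox4i1 there were 4.63, 4.83 and 4.84 of Cox4i2 in the TAC libraries and 3.38, 3.32, 3.20 and 4.32 in the TAC + EMPA libraries, with no overlap. Cox6b1 was at 4352, 4553 and 3193 FPKM against 3023, 3195, 3254 and 3127, and Cox6b2, an isoform known from testis, at 3.36, 3.13 and 2.12 against 1.03, 1.37, 2.77 and 2.27. The Cox6b2 level was too low to read its ratio, which overlapped between the groups. These ratios were described without a test. The log2 fold changes of the 2 members of each pair were -0.59 for Cox6a1 and -0.34 for Cox6a2, -0.47 for Cox8a and -0.60 for Cox8b, -0.52 for Cox7a2 and -0.53 for Cox7a1, -0.77 for Cox4i2 and -0.40 for Cox4i1, and -0.46 for Cox6b2 and -0.34 for Cox6b1.

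**Figure D4:**
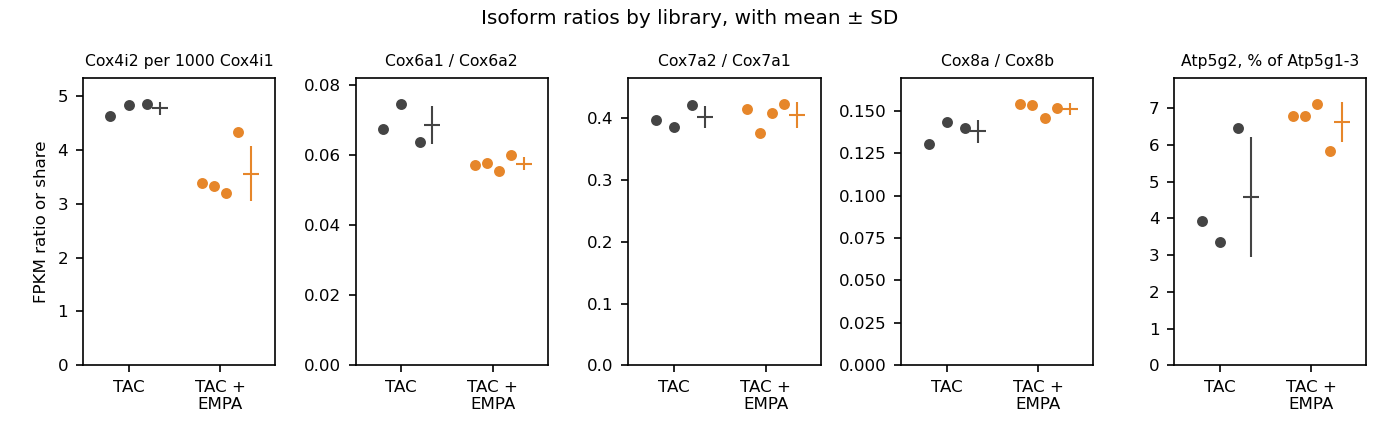
Ratios of isoforms by FPKM and the share of Atp5g2 in the summed FPKM of the 3 c-subunit genes, with 1 point per library and the mean ± SD beside each group (TAC n = 3, TAC + EMPA n = 4). The groups do not overlap for Cox4i2 to Cox4i1, Cox6a1 to Cox6a2 and Cox8a to Cox8b, and they overlap for Cox7a2 to Cox7a1 and for Atp5g2.

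In complex V, 11 of 16 genes had lower means in the TAC + EMPA group, 9 of them at an unadjusted p under 0.05 (56.2%, against 14.7% of all genes), and 5 had higher means, among them 1 at that p (6.25%, against 19%). Of 5 F1 subunits 3 were lower and 2 higher, with a median log2 fold change of -0.41. Of 10 subunits of the stalk and Fo 8 were lower and 2 higher, with a median of -0.49. Atp5a1, the alpha subunit of the head (chromosome 18 from 77773729 to 77782869), was at 2031, 1746 and 2121 FPKM in the TAC libraries and 2009, 2045, 2100 and 2384 in the TAC + EMPA libraries. Its groups overlapped, with a log2 fold change of 0.12 (SE 0.11, adjusted p = 0.449 from limma), which without TAC replicate 3 was 0.18 (adjusted p = 0.168). Atp5b, the beta subunit that pairs with alpha in the head and the gene of highest mean level among the 50, was at 8582, 8703 and 5284 against 5419, 5508, 5461 and 5690, so that TAC replicate 3 was below all 4 TAC + EMPA libraries. Its log2 fold change was -0.41 (SE 0.18, adjusted p = 0.154), and -0.65 without TAC replicate 3 (adjusted p = 0.00029). The FPKM ratio of Atp5a1 to Atp5b, chosen after the values were seen, was 0.237, 0.201 and 0.401 in the TAC libraries and 0.371, 0.371, 0.384 and 0.419 in the TAC + EMPA libraries. The gamma subunit Atp5c1 had a log2 fold change of 0.14 and the delta subunit Atp5d -0.42.

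Atp5e, the epsilon subunit of the central stalk (chromosome 2 from 174461072 to 174464105), had the lowest log2 fold change of the 48 genes. It was at 2082, 1977 and 1085 FPKM in the TAC libraries and 737, 832, 857 and 1092 in the TAC + EMPA libraries. TAC replicate 3 lay just below TAC + EMPA replicate 4, so the groups overlapped by that 1 library. The log2 fold change was -0.92 (SE 0.25, adjusted p = 0.115 from limma), and -1.22 without TAC replicate 3 (adjusted p = 0.0011). Atp5k, subunit e of the membrane sector (chromosome 5 from 108433244 to 108434448), was at 2159, 1977 and 1423 against 1059, 1228, 1234 and 1335, with no overlap and a log2 fold change of -0.59 (SE 0.16, adjusted p = 0.115). Without TAC replicate 3 it was -0.77 (adjusted p = 0.0013). The other subunits of the stalk and Fo with lower means, Atp5h, Atp5j, Atp5j2, Atp5l and Atp5o, ran from -0.51 to -0.34, and Atp5f1, subunit b of the peripheral stalk, was at 0.10. Atp5j overlaps Gabpa and Atp5f1 overlaps Wdr77, both on the opposite strand.

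Atp5s, coupling factor B, had the smallest p-value among the higher genes of complex V (chromosome 12 from 69724950 to 69744660). It was at 25.4, 21.4 and 25.5 FPKM in the TAC libraries and 29.8, 27.7, 35.7 and 37.2 in the TAC + EMPA libraries. The groups did not overlap, and TAC replicate 3 stood with the other TAC libraries, which was so for only 1 other gene of the 48, Uqcrfs1. The log2 fold change was 0.42 (SE 0.13, adjusted p = 0.117 from limma), and 0.46 without TAC replicate 3 (adjusted p = 0.034). The 3 genes that encode the same c subunit of the rotor did not differ alike. Atp5g1 was at 2311, 2253 and 1656 against 1642, 1609, 1647 and 1584, and Atp5g3 at 2843, 2557 and 1757 against 1531, 1616, 1539 and 1926. Atp5g2, the least abundant, was at 211, 168 and 235 against 231, 235, 244 and 218, with a log2 fold change of 0.19 (SE 0.13, adjusted p = 0.317), beside -0.34 for Atp5g1 and -0.51 for Atp5g3. Atp5g2 held 3.94%, 3.37% and 6.45% of their summed FPKM in the TAC libraries and 6.78%, 6.78%, 7.10% and 5.85% in the TAC + EMPA libraries. Paralogs and processed pseudogenes of these genes can share fragments, so a split among the 3 is less certain than their sum.

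The direction of the difference went with the length of the transcript. Of the 48 genes, 30 had transcripts under 1000 bases, and 29 of these had a negative log2 fold change, with a median of -0.50, whereas the 18 of 1000 bases or more divided into 9 negative and 9 positive, with a median of 0.00. The exception among the short ones was Atp5g2. Across the 48 genes the Spearman correlation of log2 length with log2 fold change was 0.74, a description only, since the genes share libraries and are not independent. Against single TAC libraries it was 0.72 for replicate 1, 0.70 for replicate 2 and 0.48 for replicate 3. The same trend ran through the whole table, weaker: over 12377 genes the correlation was 0.28, and the median log2 fold change was -0.27 for 1609 genes under 1000 bases and 0.06 for 10768 longer ones. Of these, 1159 of the 1609 shorter and 4639 of the 10768 longer genes had a negative log2 fold change. When each library was corrected for its trend on length, the median of the 30 short genes was -0.28 and that of the complexes II, III, IV and V was 0.37, -0.18, -0.24 and -0.29. Length correction with TAC replicate 3 left out, chosen after seeing the data, gave 29 lower genes of 48 (against 25.7% of all genes) and 8 higher (against 25.3%) at an adjusted p under 0.05 in limma. The shift by length was largest against the same 2 libraries that set the groups apart. Among the 48 genes a correlation of 0.48 with length remained against TAC replicate 3. The parts of length and of group cannot be told apart here. The same holds for ratios of genes of unlike length, such as Uqcc1 (2633 bases) to Uqcc2 (500) and Sdha (2900) to Sdhb (1142).

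**Figure D5:**
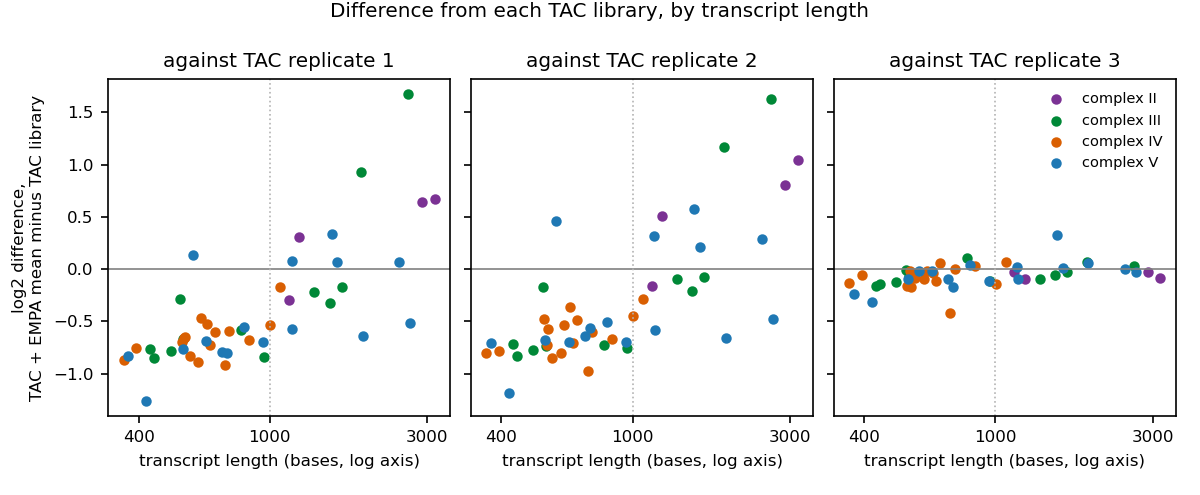
Each point is 1 of the 48 genes, with its transcript length in bases on a log axis and the mean log2(FPKM + 1) of the 4 TAC + EMPA libraries minus that of 1 TAC library on the other. Against TAC replicates 1 and 2 nearly all genes left of the dotted line at 1000 bases lie below 0 and Sdha, Sdhc, Uqcrc2 and Uqcc1 lie above it, while against TAC replicate 3 most points lie near 0 (median -0.06).

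Of the genes that assemble these complexes, none passed limma's adjusted test. Of 31 listed factors 30 were kept, 14 with a negative and 16 with a positive log2 fold change, at a median of 0.17. At an unadjusted p under 0.05 in limma, 6 of the 30 were lower, against 14.7% of all genes, and 9 of the 30 higher, against 19%. Cox15, which makes heme A for complex IV, was at 6.22, 6.82 and 17.9 FPKM in the TAC libraries and 22.9, 23.9, 24.6 and 20.5 in the TAC + EMPA libraries (log2 fold change 1.23, SE 0.32, adjusted p = 0.115). Atpaf2, a chaperone of the F1 head, was at 12.1, 11.9 and 18.5 against 21.9, 20.03, 20.9 and 20.6 (0.56, SE 0.16, adjusted p = 0.115). Both had all TAC + EMPA libraries above all TAC libraries, and TAC replicate 3 nearest to them. In the other direction, Sdhaf4, an assembly factor of complex II, was at 56.6, 57.2 and 52.2 against 41.0, 44.4, 41.9 and 45.9 (-0.35, SE 0.09, adjusted p = 0.115), and Cox14 at 199, 194 and 133 against 126, 129, 123 and 119 (-0.47, SE 0.15, adjusted p = 0.117). Sdhaf4 differed from most of the genes described here in that TAC replicate 3 lay with the other TAC libraries. Without TAC replicate 3, 10 of the 30 factors were lower and 12 higher at an adjusted p under 0.05, against 23.6% and 29.8% of all genes.

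Of 9 nuclear subunits and carriers that the name rule does not reach, 8 had a negative log2 fold change (median -0.16), and 0 passed the adjusted test. Ndufa4, now placed in complex IV, was at 3545, 3543 and 2386 FPKM in the TAC libraries and 2124, 2127, 2237 and 2515 in the TAC + EMPA libraries (log2 fold change -0.47, SE 0.16, adjusted p = 0.118 from limma). The ATP synthase subunit gene listed as 2010107E04Rik was at 1937, 1942 and 1069 against 946, 956, 934 and 1121 (-0.69, SE 0.22, adjusted p = 0.117). Slc25a3, the phosphate carrier and the only one of the 9 with a positive value, was at 834, 757 and 896 against 893, 903, 920 and 953 (0.15, SE 0.10, adjusted p = 0.287). Without TAC replicate 3, 5 of the 9 were lower and 1 higher at an adjusted p under 0.05, against 23.6% and 29.8% of all genes. The 6 mitochondrially encoded subunits of complexes III to V all carried the status HIDATA or FAIL and were listed at 0 in nearly every library, which is not read as absence.

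Of 7 listed transcription factors and coactivators of nuclear or mitochondrial respiratory genes, 6 had log2 fold changes well above 0 and Nrf1 had 0.00, with a median of 0.45. None passed the adjusted test, and 3 were higher at an unadjusted p under 0.05, against 19% of all genes. Ppargc1a, the coactivator PGC-1alpha, was at 5.12, 4.01 and 16.7 FPKM in the TAC libraries and 19.0, 17.2, 28.7 and 18.4 in the TAC + EMPA libraries (log2 fold change 1.39, SE 0.42, adjusted p = 0.116 from limma). Yy1 was at 9.08, 9.54 and 10.5 against 14.5, 13.8, 14.1 and 12.3 (0.45, SE 0.10, adjusted p = 0.115). Neither pair of groups overlapped, but Ppargc1a was near the TAC + EMPA libraries in TAC replicate 3 and Yy1 was not. Nrf1 was at 2.95 to 3.80 against 2.81 to 3.81, and its log2 fold change turned to -0.06 without TAC replicate 3. Without TAC replicate 3, 6 of the 7 were higher at an adjusted p under 0.05, against 29.8% of all genes.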

How the data were processed

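The authors mapped reads to GRCm38 (mm10) with TopHat2 2.0.13 and deposited 1 FPKM per gene and library from Cuffdiff of Cufflinks 2.2.1. The scaling option and the use of strand are not given in the sources used here. The table also holds the authors' group means, fold changes, p-values and q-values, which were not used, nor were their tables of enriched terms. The 12391 genes whose FPKM averaged 1 or more over the libraries entered a linear model of log2(FPKM + 1) with limma 3.58.1 (R 4.3.3), in which the groups were contrasted by a two-sided moderated test. Its variance prior followed the mean level, and p-values were adjusted over these genes by the Benjamini-Hochberg method. The test and the length correction were tested on simulated data. A fold change on this scale understates that of low genes. Genes and lists were chosen with earlier results of these data known. Named genes were Atp5a1, Uqcrc1, the 2 genes of smallest p in each direction of each complex, the isoform genes and, of each other list, the 2 of smallest p in each direction; other genes singled out were chosen after their values were seen. Transcript lengths and positions are from GENCODE M21 (GRCm38), promoters from RefSeq. Depth was read from whole multiples of the value of 1 fragment, found within 0.1 for at least 99.1% of the low values examined, and fragment totals are unknown. The study's methods describe its samples as biologically separate, and each library was taken as 1 replicate. Alternatives covered the pseudocount, the filter, scaling, the replicate block, each library left out, row status, length, the variance prior and library weights. Python 3.11.15, pandas 2.3.3 and matplotlib 3.10.9 were used for tables and figures.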

Additional observations from a re-analysis of the deposited data

Results flagged for a closer look

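Among the 48 genes kept, 3 had a TAC + EMPA library far from the other 3 of its group, by the gap to the nearest library over the range of the group. Cox7a2 was high in TAC + EMPA replicate 4 (904 FPKM beside 727 to 744, gap over range 0.900), as was Cox4i2 (12.0 beside 8.96 to 9.40, 0.853), and Cox8b was low in TAC + EMPA replicate 1 (1542 beside 1756 to 1791, 0.858). Chance alone would flag about 5% of groups, or 2.40 of 48, if the genes were independent, which genes of the same libraries are not. The count is of TAC + EMPA groups only. In the TAC group, replicate 3 lay nearer the TAC + EMPA libraries for 46 of the 48 genes. TAC + EMPA replicate 4 also held Alb at 26.1 FPKM, beside 0.121 to 0.409 in the other TAC + EMPA libraries, and Myh4, a myosin of fast skeletal muscle, at 27.8, beside 0.00646 to 0.346. Without TAC + EMPA replicate 4, the direction of every one of the 25 named genes of complexes II to V was as with all libraries.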

How the results depend on the processing

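Of the 25 named genes of complexes II to V, for which the alternatives other than library weights were run, none changed direction except Sdhb, Uqcrc1 and Cox6b1, which had log2 fold changes of 0.016, 0.0093 and 0.077 under quantile normalization. That scaling also gave 14 lower and 5 higher genes at an unadjusted p under 0.05. Its medians were 0.49 in complex II, -0.17 in complex III, -0.24 in complex IV and -0.17 in complex V. Under it Cox4i1, Cox6a2 and Atp5g1 were at -0.072, -0.020 and -0.079. Correction for transcript length gave medians of 0.37 in complex II, -0.18 in complex III, -0.24 in complex IV and -0.29 in complex V. With library weights, an estimate that did not fully converge and gave TAC replicate 3 a weight of 0.121, 34 genes were lower and 6 higher at an adjusted p under 0.05, and 7 higher at an unadjusted p. Length correction with TAC replicate 3 left out, chosen after seeing the data, gave 29 lower and 8 higher genes at an adjusted p, and 8 higher at an unadjusted p. Leaving out 1 library at a time gave 0 to 35 lower and 0 to 7 higher genes at an adjusted p, 4 to 35 lower and 0 to 7 higher at an unadjusted p, and medians of 0.20 to 0.56 in complex II, -0.46 to -0.21 in complex III, -0.64 to -0.34 in complex IV and -0.61 to -0.31 in complex V. The cause was not tested.

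The replicate numbers did not pair the libraries: deviations from the group means correlated at 0.10, 0.08 and -0.03 for numbers 1, 2 and 3, and the labels name no shared batch. With the replicate block, 18 genes were lower and 3 higher at an unadjusted p under 0.05, beside 1314 lower and 1839 higher of all 12391 genes, and 0 of either at an adjusted p. With 3 TAC libraries of which 1 lies with the TAC + EMPA group, the size of any difference depends on that library, and depth sets no floor for genes this abundant except Cox6b2, Cox7b2 and Cox8c.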
